A study of Mus musculus with 6 samples.

Results

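The SMAD relay was followed through 10 genes in regenerating mouse muscle, namely Smad1, Smad2, Smad3, Smad4, Smad5, Smad6, Smad7 and Smad9, with the ubiquitin ligases Smurf1 and Smurf2. They were taken from the table of all genes by symbol, and all 10 were found among 52369 genes. Of these, 9 had a mean of at least 1 FPKM (fragments per kilobase of gene, scaled to the depth of the library) and entered the test over 14788 genes, and Smad9 did not. The series compared 3 control libraries with 3 libraries of Linc-smad7 overexpression (called L7), a long non-coding RNA. All 6 came from tibialis anterior muscle of C57BL/6 mice, injured at 5 weeks of age with 50 µl of 10 µM cardiotoxin, a venom toxin that destroys muscle fibres and so starts regeneration. Both groups share the protocol text, in which 6.25 µg of the plasmid pcDNA3.1 in an in vivo transfection reagent went into the muscle on days 0.5, 2 and 4. Muscle was taken on day 7, and the labels give an age of 6 weeks. The sources used here do not say what the control plasmid carried, which cells took plasmid up or whether each library is a separate animal, so p-values measure only the spread between these samples.

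SMAD proteins carry signals of the TGF-beta family from receptors at the cell surface to genes in the nucleus. Receptors for TGF-beta, activin and myostatin phosphorylate SMAD2 and SMAD3, and receptors for bone morphogenetic proteins (BMPs) phosphorylate SMAD1, SMAD5 and SMAD9. Both kinds bind the common partner SMAD4 and enter the nucleus. SMAD6 and SMAD7 are induced by the same signals and hold them back, and the SMURF ligases mark SMADs and, through SMAD7, receptors for destruction. In skeletal muscle the SMAD2 and SMAD3 branch restrains growth and promotes scarring, while the BMP branch favours muscle mass.

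The 6 libraries held 19420012 to 24663153 reads in genes. L7 replicate 3 stood apart, with correlations over genes of 0.920 to 0.951 with the other libraries, and it held the highest share of adult fibre transcripts. The summed FPKM of 10 adult fibre markers (Acta1, Ckm and others) was 20971 to 29304 in control libraries, 31538 and 34044 in L7 replicates 1 and 2, and 93498 in L7 replicate 3. None of these markers was at 0 and 10 of 10 were higher in L7. The 6 markers of fibro-adipogenic progenitors summed to 1833 to 1927 FPKM in the controls against 1326 to 1558 FPKM in L7 libraries, and 4 of 6 were lower. Those of macrophages and monocytes summed to 1879 to 2721 FPKM and 1108 to 3053 FPKM, with 6 of 8 lower. In L7 replicate 3 the median gene lay at 0.72 of its mean in the other 5 libraries, and 63.2% of all genes had their lowest value there. Reads of Y-linked genes numbered 3185 to 4184 in Control replicates 1 and 3 and L7 replicate 1 and 0 to 2 in the other 3 libraries, so both groups mixed the sexes. Median of ratios scaling (dividing each library by the median ratio of its genes to their geometric mean) removes that shift: the median gene's log2 difference was -0.15 as deposited and -0.00292 after it. In bulk tissue fewer cells of a type and less RNA per cell cannot be told apart. The processed transcript Gm20544, next to Smad7 on the opposite strand, had 27, 34 and 29 reads in the controls against 164, 225 and 80 reads in L7 libraries, and the sources used here do not say whether it is the delivered RNA.

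**Figure D1:**
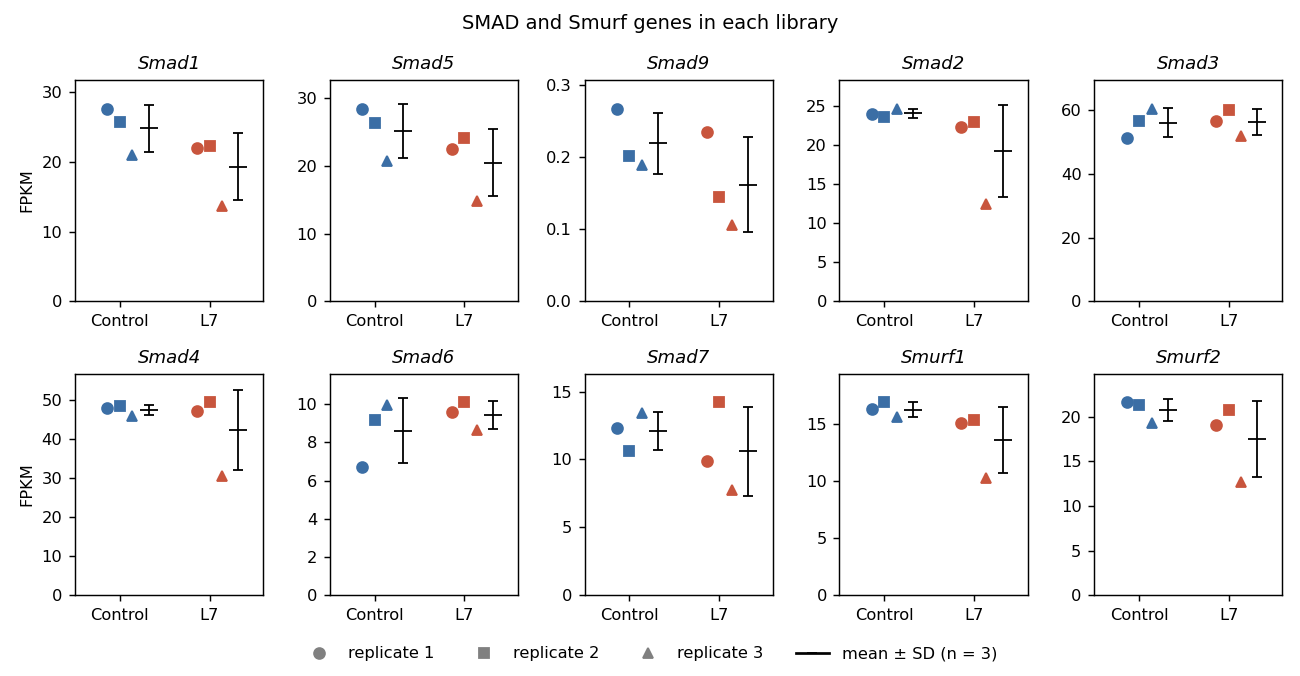
FPKM of the 10 genes (vertical axes from 0) in 3 control libraries (blue) and 3 L7 libraries (red); symbols give the replicate number and black bars the mean ± SD. In 7 of the 9 tested genes, and in Smad9, the lowest of the 6 values belongs to L7 replicate 3, while Smad3 and Smad6 keep that library closer to the rest.

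No member differed between the groups by limma, a linear model fitted across all genes. None of the 9 tested passed an adjusted p of 0.05, where 0.0% of all genes did, and none passed an unadjusted p of 0.05, where 5.90% of all genes did (1.65% higher and 4.25% lower in L7). The smallest unadjusted p was 0.136, for Smad1, with an adjusted p of 0.580. Log2 differences on the log2(FPKM + 1) scale were negative for 7 members and positive for 2, with a median of -0.26, against a median of -0.15 and 70.8% negative over all genes. After median of ratios scaling 7 were still negative, with a median of -0.09, where 50.4% of all genes were negative.

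Among the BMP transducers, Smad1 (ENSMUSG00000031681, mm10 chr8:79338395-79399518, minus strand) was at 27.6, 25.7 and 21.0 FPKM in the control libraries and 22.0, 22.2 and 13.7 FPKM in the L7 libraries. L7 replicate 3 was low, and L7 replicates 1 and 2 lay between the second and the lowest control library, so the groups overlapped. The limma log2 difference was -0.37 ± 0.22 (SE), with a 95% interval of -0.88 to 0.15, and -0.20 ± 0.13 (SE) after median of ratios scaling. It was -0.15 when L7 replicate 3 was left out. Smad5 (ENSMUSG00000021540, chr13:56703010-56742377, plus strand), which acts in parallel with Smad1, was at 28.5, 26.4 and 20.8 FPKM in the controls against 22.5, 24.1 and 14.9 FPKM in L7 libraries. Its values followed those of Smad1 from library to library. The ratio of Smad1 to Smad5 stayed between 0.921 and 1.01 in all 6 libraries, although each gene varied by 1.32-fold and 1.37-fold among the 5 libraries other than L7 replicate 3. Smad5 had a log2 difference of -0.30 ± 0.22 (SE) with a limma adjusted p of 0.580, and of -0.10 without L7 replicate 3.

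Smad9 (ENSMUSG00000027796, chr3:54755582-54801257, plus strand), the remaining BMP transducer, was near the limit of detection. It had 30, 21 and 25 reads in the controls against 28, 16 and 12 reads in L7 libraries, or 0.106 to 0.267 FPKM. The groups overlapped, and without the filter on low values its log2 difference was -0.07 ± 0.06 (SE) with a limma adjusted p of 0.724. Smad1 and Smad5 therefore made up nearly all BMP transducer message in this muscle, at means of 22.0 and 22.8 FPKM over the 6 libraries against 0.190 FPKM for Smad9.

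Smad2 (ENSMUSG00000024563, chr18:76241580-76310963, plus strand), a transducer of TGF-beta and myostatin signals, was at 24.0, 23.6 and 24.7 FPKM in the controls against 22.3, 23.0 and 12.5 FPKM in L7 libraries. Each L7 value lay below each control value, but only L7 replicate 3 lay far below. Its log2 difference was -0.35 ± 0.23 (SE), the limma adjusted p was 0.580, and the exact two-sided permutation p of 0.1 is the lowest this design of 3 against 3 can give. The difference was -0.08 without L7 replicate 3. Of the 9 tested members, 2 (Smad2 and Smurf1) had all L7 values below all control values and 0 had all above, while 13.7% and 5.49% of all genes did so in the same order. After median of ratios scaling, the groups of all 9 overlapped, where 18.3% of all genes did not (9.41% above and 8.87% below). Without L7 replicate 3 on that scale they overlapped as well, where 24.3% of all genes did not.

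Smad3 (ENSMUSG00000032402, chr9:63646767-63757994, minus strand), the other transducer of that branch and the one that binds DNA directly in its main isoform, had the highest deposited FPKM of the set. It was at 51.3, 56.5 and 60.5 FPKM in the controls against 56.7, 60.1 and 51.9 FPKM in L7 libraries. The groups overlapped throughout, and L7 replicate 3 was not the lowest library. The limma log2 difference was 0.00274 ± 0.14 (SE), with a 95% interval of -0.32 to 0.33. Within libraries, the ratio of Smad3 to Smad2 was 2.14, 2.40 and 2.45 in the controls against 2.54, 2.61 and 4.13 in L7 libraries. That ratio was chosen after its values were seen and is a description. All 36 ratios between 2 tested members were computed, and the groups did not overlap in 6 of them (16.7%). These ratios share genes and do not move with the scaling of a library. The 19.2% of single genes without overlap on deposited FPKM is thus an unlike measure. No share over ratios of other genes was computed.

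The common partner Smad4 (ENSMUSG00000024515, chr18:73639009-73703780, minus strand) was at 47.9, 48.4 and 45.8 FPKM in the controls against 47.1, 49.3 and 30.4 FPKM in L7 libraries. The groups overlapped, and the 5 libraries other than L7 replicate 3 agreed closely, with a coefficient of variation of 2.78%, the lowest of the 10 genes. Its log2 difference of -0.19 ± 0.20 (SE; limma adjusted p 0.644) became 0.03 without L7 replicate 3.

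Of the inhibitory SMADs, Smad7 (ENSMUSG00000025880, chr18:75367529-75395935, plus strand) was at 12.3, 10.6 and 13.4 FPKM in the controls against 9.86, 14.2 and 7.76 FPKM in L7 libraries. L7 libraries held the highest value and the 2 lowest, and the groups overlapped. With 267 to 535 reads per library, the limma log2 difference was -0.20 ± 0.22 (SE), with a 95% interval of -0.73 to 0.32. After median of ratios scaling it was -0.04 ± 0.17 (SE), with an interval of -0.45 to 0.36. Without L7 replicate 3 on that scale it was 0.01, so neither direction held. Relative to its signal transducers, Smad7 divided by the sum of Smad2 and Smad3 was 0.163, 0.132 and 0.157 in the controls against 0.125, 0.171 and 0.121 in L7 libraries. These ratios, which do not move with the scaling of a library, overlapped, with 0.151 ± 0.0164 (SD, n = 3) and 0.139 ± 0.0281 (SD, n = 3). The log2 difference of their means was -0.12, and -0.03 without L7 replicate 3.

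Smad6 (ENSMUSG00000036867, chr9:63953076-64022059, minus strand), which preferentially restrains BMP signalling, was at 6.71, 9.20 and 9.97 FPKM in the controls against 9.61, 10.1 and 8.67 FPKM in L7 libraries. Control replicate 1 was low, and the other 5 libraries lay close together. The log2 difference was 0.13 ± 0.18 (SE) with a limma adjusted p of 0.709, and -0.02 without Control replicate 1. Smad6 divided by the sum of Smad1, Smad5 and Smad9 was 0.119, 0.176 and 0.238 in the controls against 0.215, 0.217 and 0.302 in L7 libraries. The lowest ratio belonged to Control replicate 1 and the highest to L7 replicate 3, with overlapping groups (0.178 ± 0.0594 and 0.245 ± 0.0497, SD, n = 3).

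The start of Smad6 is shown because it carries the palindrome GTCTAGAC, to which SMAD3 and SMAD4 are known to bind. RefSeq promoters on GRCm38.p6, the assembly of mm10, run from 250 bases before to 50 bases after a gene start. The search covered 9 promoters of 7 members (Smad1, Smad3, Smad5, Smad6, Smad9, Smurf1 and Smurf2). Promoters of Smad2, Smad4 and Smad7 were not searched. The palindrome occurred in 70 of 32851 promoters (0.213%). Among the 7 members searched it was in that of Smad6, where it begins 4 bases before the first base of the gene. Its reverse complement is the same word. Capitals mark the motif in a window of 30 bases at chr9:64022045-64022074, minus strand.
Smad6: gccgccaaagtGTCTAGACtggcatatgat
A GC-rich word, GGCGCC, also its own reverse complement and of a kind bound by SMAD1 and SMAD5, was in 11.9% of promoters and in those of Smad9, Smad5 and Smurf2. Capitals mark it in the windows chr3:54755519-54755548 (plus strand) and chr13:56703021-56703050 (plus strand).
Smad9: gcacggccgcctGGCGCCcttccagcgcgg
Smad5: ccccggcgagcgGGCGCCgagcgcttgtcc
The shorter word CAGAC or GTCTG, in 49.6% of promoters, was found for Smad5, Smurf1 and Smurf2. The word GCCGNCGC or GCGNCGGC, in 9.76%, was found for Smad5, Smad9, Smurf1 and Smurf2, partly overlapping GGCGCC in Smurf2. These are matches of letters and not measured binding.

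Smurf1 (ENSMUSG00000038780, chr5:144876495-144965847, minus strand), a ligase first described for BMP SMADs, was at 16.3, 16.9 and 15.6 FPKM in the controls against 15.1, 15.4 and 10.3 FPKM in L7 libraries. Each L7 value lay below each control value, by a small step in L7 replicates 1 and 2 and a larger one in L7 replicate 3. The log2 difference was -0.26 ± 0.18 (SE; limma adjusted p 0.580, exact permutation p 0.1), and -0.10 ± 0.10 (SE) after median of ratios scaling. Leaving out L7 replicate 3 gave -0.09. Smurf2 (ENSMUSG00000018363, chr11:106820066-106920715, minus strand), its close relative, was at 21.6, 21.3 and 19.3 FPKM in the controls against 19.1, 20.8 and 12.7 FPKM in L7 libraries, with overlapping groups. The pair kept a ratio of Smurf1 to Smurf2 between 0.741 and 0.808 in all 6 libraries. The log2 difference of Smurf2 was -0.26 ± 0.20 (SE) with a limma adjusted p of 0.583. It was -0.09 after scaling and -0.05 without L7 replicate 3.

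The series title names miR-125b, a microRNA that Linc-smad7 is proposed to bind, so the members were searched for its target word. The mature RNA is encoded at chr9:41581940-41581961 and chr16:77646279-77646300 (RefSeq, GRCm38.p6, plus strands), and capitals mark its seed, bases 2 to 8.
miR-125b-5p: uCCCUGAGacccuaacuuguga
The matching word CTCAGGG was sought on the sense strand of the longest annotated 3′ UTR of each gene. It occurred in 2161 of 12733 tested genes with a 3′ UTR (17.0%), and in 386 of them (3.03%) at least 2 times. Smurf1 had 2 matches in a 3′ UTR of 2862 bases, and the other 9 members had 0, in 3′ UTRs of 448 to 6233 bases. Capitals mark the word in the Smurf1 windows, which begin their matches at bases 1942 and 2315 of that 3′ UTR.
Smurf1, base 1942: gagcttaggccCTCAGGGgctgactgattg
Smurf1, base 2315: cggcacccacaCTCAGGGacgcagcagaca
Smurf1, the 1 member with the word, had the values given above, with each L7 library below each control library on FPKM and overlapping groups after scaling.

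**Figure D2:**
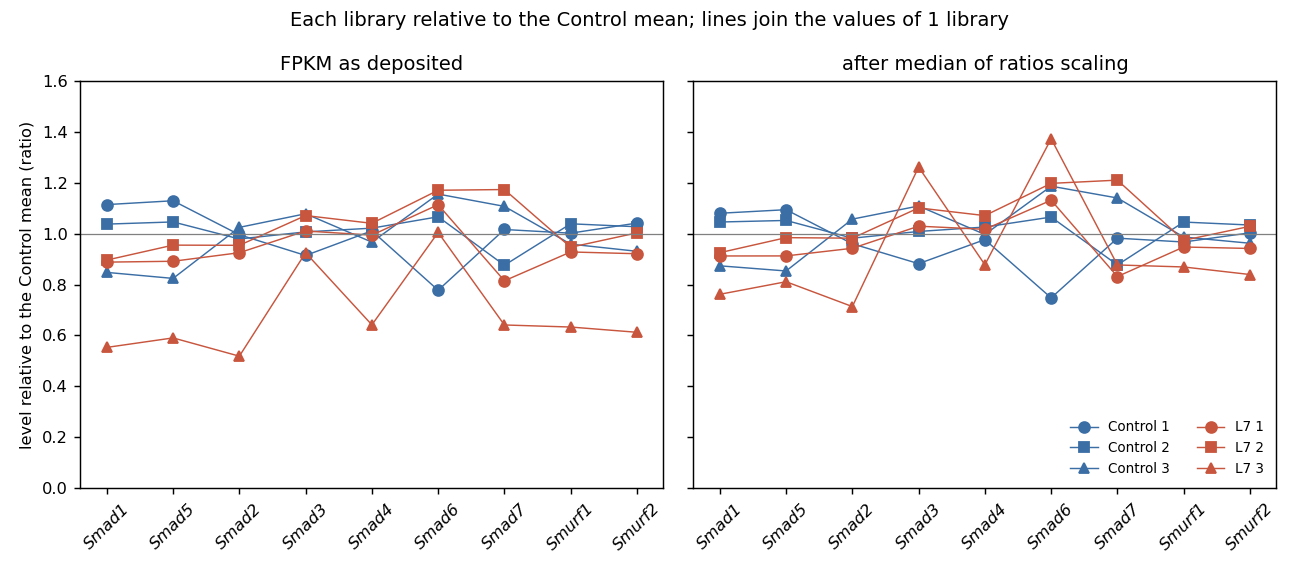
Level of each of the 9 tested genes in each library divided by the mean of the 3 control libraries (vertical axis, ratio), on FPKM as deposited (left) and after median of ratios scaling (right). On the left L7 replicate 3 is the lowest library for 7 genes; on the right it is the highest for Smad3 and Smad6 and below 1 for the other 7.

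The members did not move as 1 block across libraries. In L7 replicate 3 Smad2, Smad1 and Smad5 were at 0.534, 0.578 and 0.608 of their mean in the other 5 libraries, below the 0.72 of the median gene, whereas Smad3 and Smad6 were at 0.909 and 0.951. On the median of ratios scale the same 5 genes were at 0.723, 0.785, 0.827, 1.23 and 1.28, in that order, against 0.977 for the median gene. Among the other 5 libraries, Control replicate 1 had the highest Smad1 and Smad5 and the lowest Smad3 and Smad6. Pearson's r over the 6 libraries on the scaled values was 0.96 between Smad1 and Smad5, 0.95 between Smad3 and Smad6, -0.93 between Smad1 and Smad3 and -0.85 between Smad1 and Smad6. Without L7 replicate 3, on FPKM as deposited, these were 0.97, 0.95, -0.88 and -0.86. As deposited and over all 6 libraries Smad1 and Smad3 had an r of 0.17, so the opposed pattern did not appear there. The points share libraries and depth, and the coefficients are a description. Adult fibre markers were also highest in L7 replicate 3 and lowest in Control replicate 1, and their part in this pattern was not tested.

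On the scaled values Smad7 followed neither Smad1 and Smad5 nor Smad3 and Smad6. Its r over the 6 scaled libraries was 0.02 with Smad1, 0.05 with Smad5, 0.06 with Smad3 and 0.03 with Smad6. It was higher with Smad2 (0.49), Smad4 (0.44), Smurf2 (0.42) and Smurf1 (0.26). On FPKM as deposited, the r of Smad7 was 0.82 with Smad2, 0.78 with Smad4 and with Smurf2, 0.64 with Smad1 and 0.14 with Smad6. The 5 named genes most like it on log2(FPKM + 1), by Pearson's r over 6 libraries, were Trbv16 (0.992), a T cell receptor segment, the microRNA gene Mir3060 (0.977), Lsm14b (0.973), an RNA-binding protein gene, Haao (0.972), an enzyme gene of the kynurenine pathway, and Zfp971 (0.971). Without L7 replicate 3 their r ranged from 0.928 to 1.0. Trbv16, Haao and Zfp971 were low, at 0.830 to 2.18, 0.657 to 2.75 and 1.82 to 2.92 FPKM, in that order. For Lsm14b the likeness rested on the library scale, as its r was 0.073 after median of ratios scaling. Those most like Smad6 were Alg3 (0.989), a mannosyltransferase gene, Thbd (0.974), the thrombomodulin gene of endothelium, Sympk (0.970), Tnfrsf21 (0.968) and Samd1 (0.964), and without L7 replicate 3 their r ranged from 0.967 to 0.992. An r of at least 0.9 was reached by 174 of 13023 genes with Smad7 and by 26 with Smad6.

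**Figure D3:**
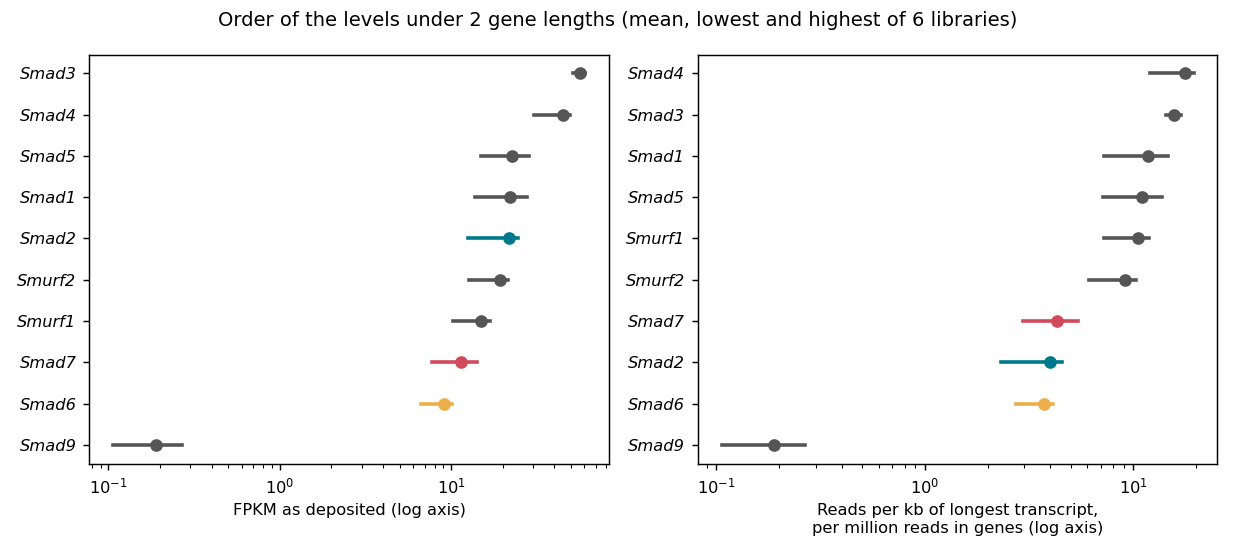
Mean (dot) and range (line) over the 6 libraries of each gene, ordered from high to low, on log axes, for FPKM as deposited (left) and reads per kilobase of the longest annotated transcript, scaled to the reads in genes (right). Smad2 (teal) lies above Smad7 (red) on the left and beside it on the right.

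The order of the levels depended on the gene length behind the values. On deposited FPKM the means over 6 libraries ran from Smad3 (56.2) and Smad4 (44.8) to Smad5 (22.8), Smad1 (22.0), Smad2 (21.7), Smurf2 (19.2), Smurf1 (14.9), Smad7 (11.4), Smad6 (9.04) and Smad9 (0.190). Smad3 was above Smad4 and Smad4 above Smad5 in 6 of 6 libraries with separate ranges, while Smad1 was above Smad2 in 3 of 6. Recovered reads showed which length each FPKM value was divided by. For 9 of the 10 genes it was the mean length of the annotated transcripts, short fragments included, as it was within 2% for 85.3% of 12414 genes with over 500 reads. It was 1427 bases for Smad3, whose longest transcript has 5090, and 1490 bases for Smad2, whose longest has 8089 (the mean of its annotated transcripts is 2238). Smad9 has 1 annotated transcript, of 5368 bases, so its FPKM was not raised in this way.

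Divided by the longest transcript instead, the levels (reads per kilobase, scaled to the reads in genes) were 17.7 for Smad4, 15.7 for Smad3, 11.7 for Smad1, 11.0 for Smad5, 10.5 for Smurf1, 9.17 for Smurf2, 4.31 for Smad7, 3.99 for Smad2, 3.71 for Smad6 and 0.190 for Smad9. Smad2 then lay beside the inhibitory SMADs, with Smad7 above Smad2 in 4 of 6 libraries and overlapping ranges, whereas on deposited FPKM Smad2 had a mean of 21.7 against 11.4 for Smad7. A ratio of FPKM between groups for 1 gene does not depend on this length, whereas a difference in log2(FPKM + 1) does, through the 1 that is added. Smad9 was last by either length.

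**Figure D4:**
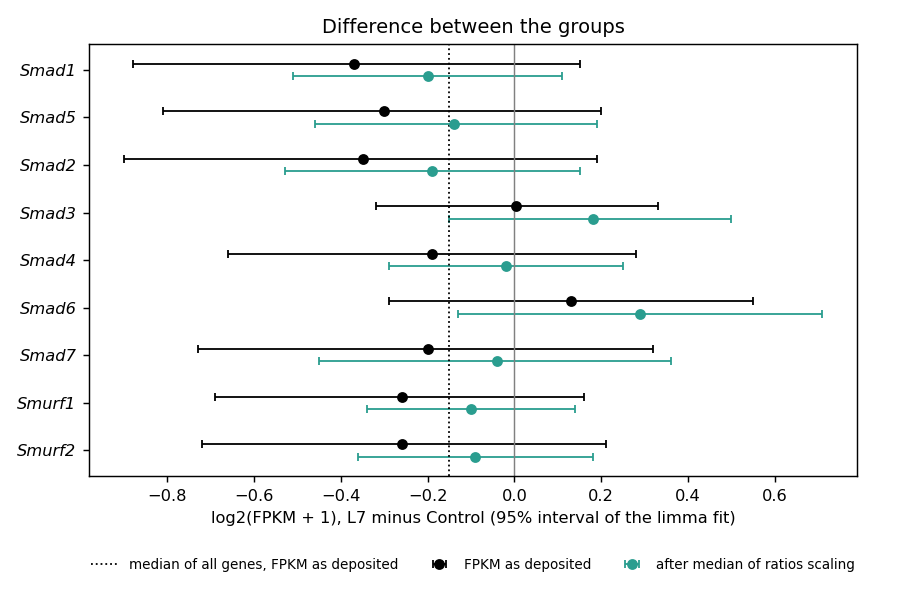
Log2 difference in log2(FPKM + 1), L7 minus control, of the 9 tested genes with its 95% interval from limma, on FPKM as deposited (black) and after median of ratios scaling (green); the dotted line is the median of all genes, -0.15. Every interval includes 0 on both scales.

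The rest of the pathway was read from 6 lists. Ligands had 5 of 11 tested members higher and 6 lower in L7, where 70.8% of all genes were lower. Their median log2 difference was -0.04, against -0.15 over all genes, and it was 0.11 after scaling. Bmp2, a BMP ligand, was at 6.80, 4.52 and 6.14 FPKM in the controls against 2.40, 3.85 and 1.45 FPKM in L7 libraries. Each L7 library was below each control library, with or without scaling, and the log2 difference was -0.98 ± 0.28 (SE; limma p 0.00875, adjusted p 0.580). Inhbb, a subunit of activin B, was at 2.66 ± 0.396 FPKM (SD, n = 3) and 1.62 ± 0.433 FPKM (SD, n = 3), with separate groups and a limma adjusted p of 0.580. For Mstn, which encodes myostatin, values were 0.982, 1.44 and 1.71 FPKM in the controls against 1.82, 1.91 and 4.28 FPKM in L7 libraries. The BMP ligand gene Bmp6 was at 1.23, 2.33 and 1.99 FPKM in the controls against 2.58, 2.42 and 4.54 FPKM in L7 libraries. Each L7 value of both lay above each control value, with or without scaling, the limma adjusted p was 0.580 for each, and both genes were chosen after their values were seen. Of the 11 tested ligands, 2 lay wholly above and 2 wholly below the controls, where 5.49% and 13.7% of all genes did. After scaling these counts were the same, where 9.41% and 8.87% of all genes did so. Tgfb1, the most abundant ligand, was at 93.3 ± 13.4 FPKM (SD, n = 3) and 79.0 ± 24.7 FPKM (SD, n = 3), with overlapping groups. Receptors were lower in 11 of 12 tested members, where 70.8% of all genes were, with a median of -0.19, near that of all genes. None separated the groups, where 19.2% of all genes did. After scaling 7 of 12 were lower with a median of -0.02, and without L7 replicate 3 the unscaled median was -0.04. The type I receptor gene Acvr1 was at 16.1 ± 2.11 FPKM (SD, n = 3) and 13.1 ± 3.14 FPKM (SD, n = 3). The BMP type II receptor gene Bmpr2 was at 12.5 ± 1.57 FPKM (SD, n = 3) and 10.2 ± 1.89 FPKM (SD, n = 3), and both overlapped. The endothelial co-receptor gene Eng, the most abundant of them, was at 65.6, 75.1 and 83.1 FPKM in the controls against 62.9, 83.7 and 69.5 FPKM in L7 libraries.

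Anchors, importers and nuclear partners were lower in 18 of 19 tested members, where 70.8% of all genes were, with a median of -0.25. After scaling 13 of 19 were lower, where 50.4% of all genes were, with a median of -0.10. The unscaled median in the 5 libraries other than L7 replicate 3 was -0.03. Of the 19, 4 lay wholly below the controls and 0 wholly above, where 13.7% and 5.49% of all genes did. After scaling 1 lay wholly below, where 8.87% of all genes did, and 0 wholly above. Skil, a corepressor that TGF-beta signals themselves induce, was at 25.3, 22.7 and 25.0 FPKM in the controls against 19.1, 21.9 and 7.69 FPKM in L7 libraries, with separate groups and a limma adjusted p of 0.580. Runx2, a transcription factor that partners SMADs, was at 13.8 ± 1.86 FPKM (SD, n = 3) and 9.41 ± 4.27 FPKM (SD, n = 3), and the abundant receptor-associated Strap at 96.0 ± 11.5 FPKM (SD, n = 3) and 85.8 ± 16.5 FPKM (SD, n = 3), both with overlap. The other ubiquitin enzymes and phosphatases were higher in 6 and lower in 10 of 16, where 70.8% of all genes were lower. After scaling 10 were higher and 6 lower, where 50.4% of all genes were lower. Wwp1, a ligase of the same family as the SMURFs that is abundant in muscle, was at 7.83, 8.55 and 8.63 FPKM in the controls against 11.1, 8.76 and 16.5 FPKM in L7 libraries. Each L7 library was above each control library, with or without scaling (log2 difference 0.45 ± 0.23 SE, limma adjusted p 0.580). Of the 16 on this list, 2 lay wholly above and 1 wholly below the controls, where 5.49% and 13.7% of all genes did. Pmepa1, which brings ligases to SMADs and is itself a TGF-beta target, was at 51.3 ± 10.4 FPKM (SD, n = 3) and 36.2 ± 9.39 FPKM (SD, n = 3), with overlap. The phosphatase gene Ctdsp2, the most abundant of this list, had a log2 difference of 0.01 ± 0.14 (SE).

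Target genes of SMAD2 and SMAD3 stood lowest of the lists, with a median log2 difference of -0.56, against -0.15 over all genes. The difference was negative in 18 of 18 tested members, where 70.8% of all genes were negative. The lists were chosen with earlier results of these data known, so this count is a description. Skil and Pmepa1 are also counted in other lists above. None passed limma over all genes, and 3 were lower at an unadjusted p under 0.05, where 4.25% of all genes were. Ccn2, connective tissue growth factor, was at 29.6, 27.7 and 24.8 FPKM in the controls against 13.4, 20.5 and 8.93 FPKM in L7 libraries, so that the groups did not overlap. Its log2 difference was -0.96 ± 0.27 (SE; limma p 0.00895, adjusted p 0.580). Timp1, an inhibitor of matrix proteases, was at 192, 171 and 228 FPKM in the controls against 141, 135 and 54.0 FPKM in L7 libraries. Of the 18 targets, 3 lay wholly below the controls and 0 wholly above, where 13.7% and 5.49% of all genes did. After scaling these counts were the same, where 8.87% and 9.41% of all genes did so. The fibrillar collagen gene Col1a1, the most abundant target, had overlapping groups with a log2 difference of -0.06 ± 0.35 (SE). After scaling 15 of 18 were lower with a median of -0.39, and without L7 replicate 3 as well 13 of 18 with a median of -0.10. The summed markers of fibro-adipogenic progenitors, which express many of these genes, were lower in each L7 library than in each control library, and their part in the result was not tested.

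Target genes of SMAD1, SMAD5 and SMAD9 were lower in 5 of 8 tested members, where 70.8% of all genes were. Their median was -0.19, near the -0.15 of all genes. After scaling 4 of 8 were lower, where 50.4% of all genes were, with a median of -0.03. On that scale and without L7 replicate 3 the median was -0.09, beside -0.10 for the targets of SMAD2 and SMAD3. Fbxo30, a ubiquitin ligase gene that BMP signalling is known to repress in muscle, was at 9.39, 8.14 and 7.84 FPKM in the controls against 6.66, 6.86 and 4.36 FPKM in L7 libraries. Its groups were separate with and without scaling (log2 difference -0.46 ± 0.19 SE, limma p 0.0487, adjusted p 0.580). Id2, a classical BMP target, was at 43.1, 33.8 and 46.5 FPKM in the controls against 33.5, 32.4 and 17.0 FPKM in L7 libraries, and its groups were separate as deposited and overlapped after scaling. Of the 8 targets, 3 lay wholly below the controls and 0 wholly above, where 13.7% and 5.49% of all genes did. After scaling 1 lay wholly below, where 8.87% of all genes did, and 0 wholly above. Id3, the most abundant of the list, was at 95.2 ± 11.9 FPKM (SD, n = 3) and 74.3 ± 17.9 FPKM (SD, n = 3), with overlapping groups.

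**Figure D5:**
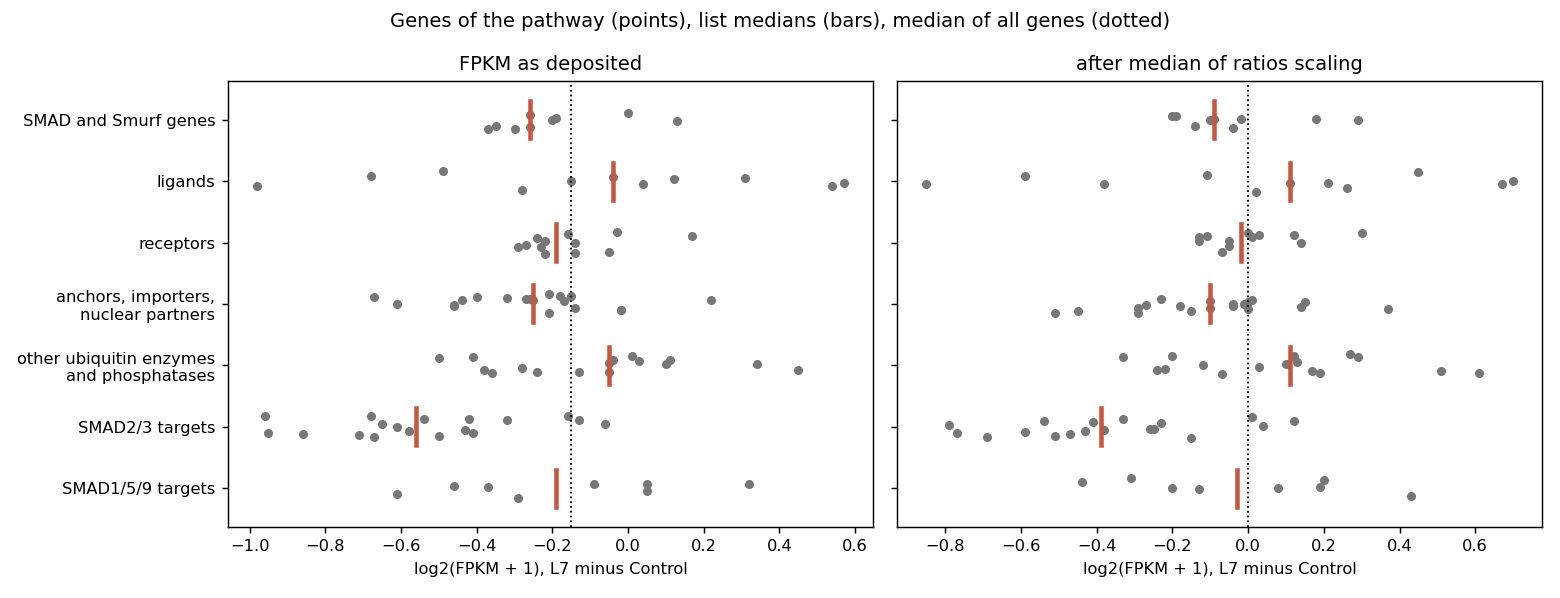
Log2 difference in log2(FPKM + 1), L7 minus control, of each tested gene (points) in the SMAD and Smurf set and the 6 pathway lists, with list medians (red bars) and the median of all genes (dotted line), as deposited (left) and after median of ratios scaling (right). SMAD2 and SMAD3 targets have the lowest median on both sides, -0.56 and -0.39.

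In the authors' deposited comparison none of the 10 genes had a p under 0.05, where 1.13% of 31690 genes with a p-value did, or an adjusted p under 0.05, where 0.0284% did. Its log2 fold changes ran from -0.30 for Smad9 to 0.30 for Smad6, with -0.04 for Smad7 (p 0.889). Gm20544, the transcript next to Smad7, had a log2 fold change of 2.5 there and passed with an adjusted p of 0.0449. By limma its log2 difference was 1.84 ± 0.34 (SE; p 0.000792, adjusted p 0.580), with each L7 library above each control library. In the authors' deposited table of Gene Ontology terms, SMAD protein signal transduction held 3 of the 268 called genes with an over-representation p of 0.0463 and a corrected p of 0.662. The deposited comparison had 9 genes with an adjusted p under 0.05, so the 268 were not called by that threshold. Pathway-restricted SMAD protein phosphorylation held 4 in the same deposited table, with a corrected p of 0.239. None of the called genes in these terms was a SMAD or Smurf member.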

How the data were processed

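Per the submitters' processing notes, the build was mm10 and the tools, whose roles are not stated, included DESeq 1.12.0, HISAT2 2.0.4, TopHat2 2.0.12 and Bowtie2 2.2.3. The sources used here name no counting program, annotation or strand setting. The authors deposited FPKM for 52369 genes in 6 libraries. They also deposited a comparison with, per the file headers, mean read counts per group (a signal scaled by size factors), log2 fold changes and p-values, and p-values of Gene Ontology terms.

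Symbols and coordinates came from GENCODE M21, matched by Ensembl identifier (51633 genes with a symbol). Reads per gene were recovered from the steps of the deposited means and the FPKM values, and 150666 of 150666 values above 0 and under 10000 reads lay within 0.05 of a whole number. Exons of the members shared bases only with Gm27301 (100, Smad5) and Gm27322 (58, Smurf2), both listed at 0.

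Groups were compared by limma-trend (limma 3.58.1 in R 4.3.3), two-sided, applied to log2(FPKM + 1) of the 14788 genes averaging 1 FPKM or more; p-values were Benjamini-Hochberg adjusted and called under 0.05. Fold changes on that scale understate low genes. Exact permutation tests used all 20 splits of 3 libraries against 3. Alternatives were another pseudocount (0.1), no filter, median of ratios scaling, array weights, voom on recovered reads, the replicate number as a block, sex read from Y-linked reads, and each library left out. Scaling combined with leaving out L7 replicate 3, and the length of the longest transcript, were added after seeing the data. Members and lists were chosen with earlier results of these data known. Named were all members, in each list the 2 genes of smallest limma p and the most abundant one, and the 5 genes most like Smad7 and Smad6. Python 3.11.15, pandas 2.3.3 and matplotlib 3.10.9 made the tables and figures.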

Additional observations from a re-analysis of the deposited data

How the results depend on the processing

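No member passed limma, at an adjusted p or at an unadjusted p of 0.05, in any of the 14 alternatives run. Over all genes the count at an adjusted p under 0.05 was 0, and it was 3 with array weights, 1 with median of ratios scaling without L7 replicate 3, and 0 to 1 with 1 library left out. Members whose groups did not overlap numbered 2 of 9, where 19.2% of all genes did not overlap. They numbered 0 with median of ratios scaling, where 18.3% of all genes did not overlap. With that scaling and L7 replicate 3 omitted they numbered 0, where 24.3% did not. With 1 library left out they numbered 2 to 5. There were 5 without Control replicate 3 (35.9% of all genes) and 4 without L7 replicate 2 (30.0%). There were 2 without Control replicate 1 (22.4%), Control replicate 2 (31.3%), L7 replicate 1 (35.9%) or L7 replicate 3 (24.9%). Smad1, Smad2, Smad5, Smurf1 and Smurf2 were negative in all 14, but their size moved with L7 replicate 3, without which they were at -0.15, -0.08, -0.10, -0.09 and -0.05, in that order. The direction changed for Smad3 (0.00274) to -0.06, -0.00434 and -0.05 without Control replicate 1, L7 replicate 1 and L7 replicate 2, for Smad4 (-0.31 to 0.03 with 1 library left out) to 0.03 without L7 replicate 3 and 0.06 when scaled as well, for Smad6 (-0.02 to 0.24 with 1 library left out) to -0.02 without Control replicate 1, and for Smad7 to 0.04 with array weights and 0.01 with scaling and without L7 replicate 3. The cause was not tested. The median of the ligands (-0.04) was 0.11 with median of ratios scaling, 0.13 with voom and -0.17 to 0.10 with 1 library left out; that of the ubiquitin enzymes and phosphatases (-0.05) was 0.11 and 0.12 with scaling and voom. With 1 library left out, the log2 difference of the Smad7 ratio (-0.12) ran from -0.30 without L7 replicate 2 to -0.03 without L7 replicate 3, and that of the Smad6 ratio (0.46) from 0.24 without Control replicate 1 to 0.73 without Control replicate 3. Deviations from the group mean had an r of 0.322, -0.065 and 0.087 between samples with the same replicate number. Between samples of unlike number it ran from -0.346 to 0.22. So few values cannot decide whether the numbers mark a pairing. With the replicate block 0 members and 0 genes passed. Depth limits Smad9, with 12 to 30 reads.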
